A study of Mus musculus with 96 samples.

Results

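Less accessible promoters were 1503 of the 42403 GATA6 binding regions of the deposited table. They were the regions that the authors placed in their promoter class by histone marks and whose chromatin they graded moderate (1464 regions) or closed (39 regions) before GATA6 induction. No measured GATA6, SOX17, OCT4, SOX2 or ESRRB value entered this choice, although every region of the table had been called as a GATA6 peak in at least 1 condition. The remaining promoters of the table, 1415 regions graded accessible, and the other 37748 moderate or closed regions served as comparisons.

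The study followed mouse KH2 embryonic stem (ES) cells, of a C57BL/6 x 129/Sv background, in which doxycycline (Dox, 1 µg/mL) switched on a GATA6 transgene carrying 3 HA tags, on the way to primitive endoderm (PrE). ChIP-seq, which sequences DNA recovered with an antibody after crosslinking, was done for GATA6, SOX17, OCT4, SOX2 and ESRRB, beside input chromatin, before Dox (d0), after 8 h, 16 h and 1, 2 and 4 days of Dox, and in XEN cells, an extraembryonic endoderm stem cell line derived from CD1 mice that needs no transgene. ESRRB was not profiled in XEN cells. In a further experiment, GATA6 and SOX17 were profiled on day 2 of Dox after nucleofection of siRNAs against Oct4 or of control siRNAs.

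The transgene was carried by picked clones (G6.1 and G6.3, with G6.3 used for the Oct4 knock-down), and the d0 cells carried it too, without Dox. ES and XEN cells grew on mouse embryonic fibroblast feeders, which were adsorbed to plastic before fixation. XEN cells therefore differ from the induced cells in line and strain as well as in state. The table gives 1 value per region and condition, as reads scaled to library size (RPM), for the pooled libraries of that condition: by the sample titles, GATA6 at d0 and OCT4 in XEN came from 1 library, the other conditions from 2 or 3. ESRRB values at 8 h and SOX17 values at 16 h, with 2 titled libraries each, moved in a single step like those of the 1-library columns. Whether both libraries entered these values cannot be told. No replicate spread can be recovered from pooled values, so changes are described by size, with no p-value. A region was counted as changed when log2(RPM + pseudocount) moved by at least 1, that is 2-fold, with a pseudocount of 0.193 RPM for GATA6, 0.192 for SOX17, 0.167 for OCT4, 0.195 for SOX2, 0.164 for ESRRB and 0.158 for input. The pooled libraries held between 5.42 M and 69.4 M reads each as far as the steps of the values show, which makes 1 read worth 0.0072 to 0.163 RPM. No column held a value of 0, and in 40 of 45 columns the lowest value equalled 1 read per pooled library. Whether a region at that floor had a read or none cannot be told.

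GATA6 is a zinc-finger factor that binds GATA sequences, can engage DNA wrapped in nucleosomes, and drives PrE identity. SOX17, an HMG-box factor, acts downstream of GATA6 in the same lineage. OCT4, SOX2 and ESRRB are pluripotency TFs (PTFs) of ES cells, and OCT4 and SOX2 bind together at a composite OCT:SOX motif. Active promoters carry H3K4me3 and are usually most open at the transcription start.

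The position of the members fitted their promoter label in part. A transcription start of the GENCODE annotation lay within 1 kb of the region centre for 998 members, and 908 of these had a protein-coding gene as the nearest one. Another 505 members had no annotated start within 1 kb, and 131 (8.72%) lay more than 10 kb from one. The centre was within 250 bp of a start in 357 members (23.8%), against 47.8% of accessible promoters and 2.37% of the other moderate or closed regions. The median distance to a start was 612 bp in the members and 271 bp in accessible promoters. Among regions within 1 kb of a start, 48.4% of the members and 33.1% of the accessible promoters lay downstream of it. In steps of 200 bp, 10.4% of the members lay just upstream and 9.38% just downstream of the start, against 26.4% and 15.7% of accessible promoters. Less accessible promoters were thus less concentrated at the start than accessible promoters and spread further to either side of it.

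**Figure D1:**
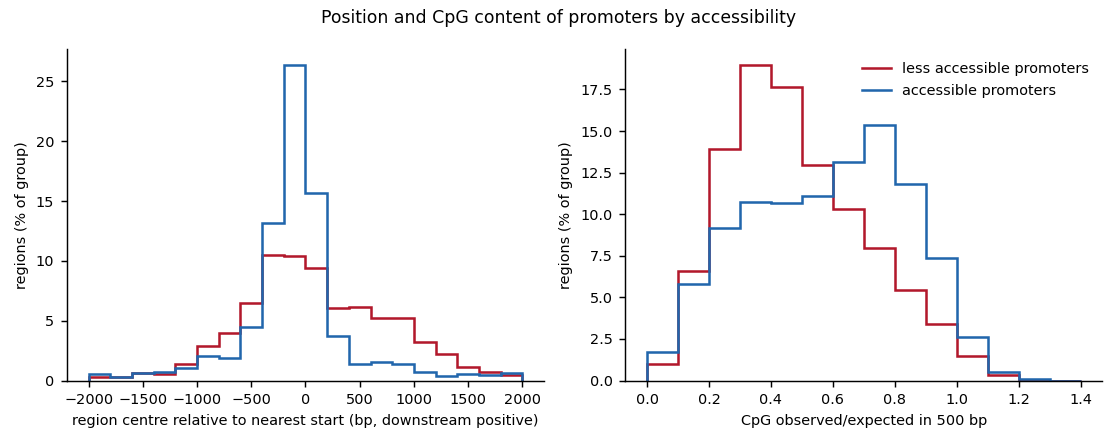
Left, distance of the region centre from the nearest transcription start in bp (x axis, downstream positive) against the share of regions in percent (y axis). Right, the ratio of observed to expected CpG in 500 bp around the region centre. Red lines show the 1503 less accessible promoters and blue lines the 1415 accessible promoters, which peak closer to the start and hold more CpG.

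By annotated feature, 46.5% of member centres were intronic, 33.8% intergenic, 8.12% in a UTR, 2.99% in a coding exon and 8.58% in another exon. In the 500 bp around the region centre, the median ratio of observed to expected CpG was 0.457 in the members, 0.606 in accessible promoters and 0.184 in the other moderate or closed regions. The ratio passed 0.6, a usual mark of CpG islands, in 435 members (28.9%). GATAA, or its complement TTATC on the same strand, was found in 79.2% of the 500 bp windows of the members, in 57.1% of those of accessible promoters, in 87.1% of those of the other moderate or closed regions and in 84.5% over all regions. The authors' motif scan, made with FIMO and JASPAR matrices, graded the best GATA6 motif as high or mid in 810 members (53.9%), and in 31.8% of accessible promoters and 62.7% of the other moderate or closed regions. In sequence, then, the members stood between accessible promoters and the bulk of GATA6 regions, and the same order held for the density of GATA6 motifs (3.06, 2.16 and 4.25 per kb).

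The best motif of each kind in a few of the members described below is printed here, with 40 bases on either side as examples of the motifs by which members are divided in what follows. No test ties a printed motif to the signal of its region. Sequences come from the mm10 (GRCm38) reference, 5′ to 3′ on the strand of the motif the line is named for, and capitals mark the best deposited motif of any of the 4 factors that lies whole in the window. Rbpms (chr8:33931257-33931349, plus strand, 20 bp from the summit) has a high GATA6 motif and Kntc1 (chr5:123750563-123750655, minus strand) a mid one. The region in an intron of Sall4 (chr2:168762907-168762999, minus strand) has a GATA6 and a SOX17 motif in the same window. P4ha1 (chr10:59322605-59322693) and Dennd2c (chr3:103103464-103103552), both plus strand, carry a SOX17 motif 22 bp from the summit. Heca (chr10:17948400-17948488, minus strand) has overlapping SOX17 and GATA6 motifs. Lefty1 (chr1:180933829-180933923, minus strand) carries a high OCT:SOX motif, Zyg11a (chr4:108219119-108219209, minus strand) a high ESRRB motif, and Eef1akmt1 (chr14:57570788-57570876, minus strand), graded closed, a high SOX17 motif.
Rbpms, GATA6: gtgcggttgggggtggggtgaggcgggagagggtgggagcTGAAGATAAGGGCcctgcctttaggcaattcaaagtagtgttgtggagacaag
Kntc1, GATA6 and SOX17: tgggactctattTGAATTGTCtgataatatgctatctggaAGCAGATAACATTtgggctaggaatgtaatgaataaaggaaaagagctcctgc
Sall4 intron, GATA6 and SOX17: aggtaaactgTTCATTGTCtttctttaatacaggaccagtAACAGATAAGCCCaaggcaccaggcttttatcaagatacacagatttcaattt
P4ha1, SOX17: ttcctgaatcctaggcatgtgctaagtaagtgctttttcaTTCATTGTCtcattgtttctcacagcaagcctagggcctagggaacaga
Dennd2c, SOX17: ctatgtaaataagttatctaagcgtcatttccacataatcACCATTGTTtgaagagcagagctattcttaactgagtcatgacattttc
Heca, SOX17 overlapping GATA6: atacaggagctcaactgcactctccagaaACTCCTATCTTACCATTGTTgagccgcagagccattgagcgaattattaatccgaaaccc
Lefty1, OCT:SOX: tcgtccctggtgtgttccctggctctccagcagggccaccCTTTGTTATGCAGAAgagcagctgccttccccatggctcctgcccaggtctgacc
Zyg11a, ESRRB: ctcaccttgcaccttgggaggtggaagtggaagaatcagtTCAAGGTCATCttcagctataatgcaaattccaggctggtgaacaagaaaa
Eef1akmt1, SOX17: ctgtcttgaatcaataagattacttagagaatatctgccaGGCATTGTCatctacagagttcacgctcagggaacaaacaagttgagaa

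GATA6 arrived at most of the members within 8 h of Dox. The median GATA6 signal was 0.653 RPM before Dox and 2.25 at 8 h, followed by 2.84 (16 h), 1.94 (day 1), 1.83 (day 2), 2.26 (day 4) and 2.01 (XEN). GATA6 rose at least 2-fold between d0 and 8 h at 1078 members (71.7%), where 60.4% of all regions did, and fell at 3 members, where 1.8% of all regions did. The median log2 change was 1.58 in the members (quartiles 0.897 and 2.25) and 1.38 over all regions (0.414 and 2.28). Relative to the shift of all regions, 20.8% of the members and 22.4% of all regions rose. The members' excess in share was thus gone with the call set that much higher, while their median stayed above that of all regions. In pooled cells a low signal can mean weak binding in every cell or binding in fewer cells, which cannot be told apart.

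**Figure D2:**
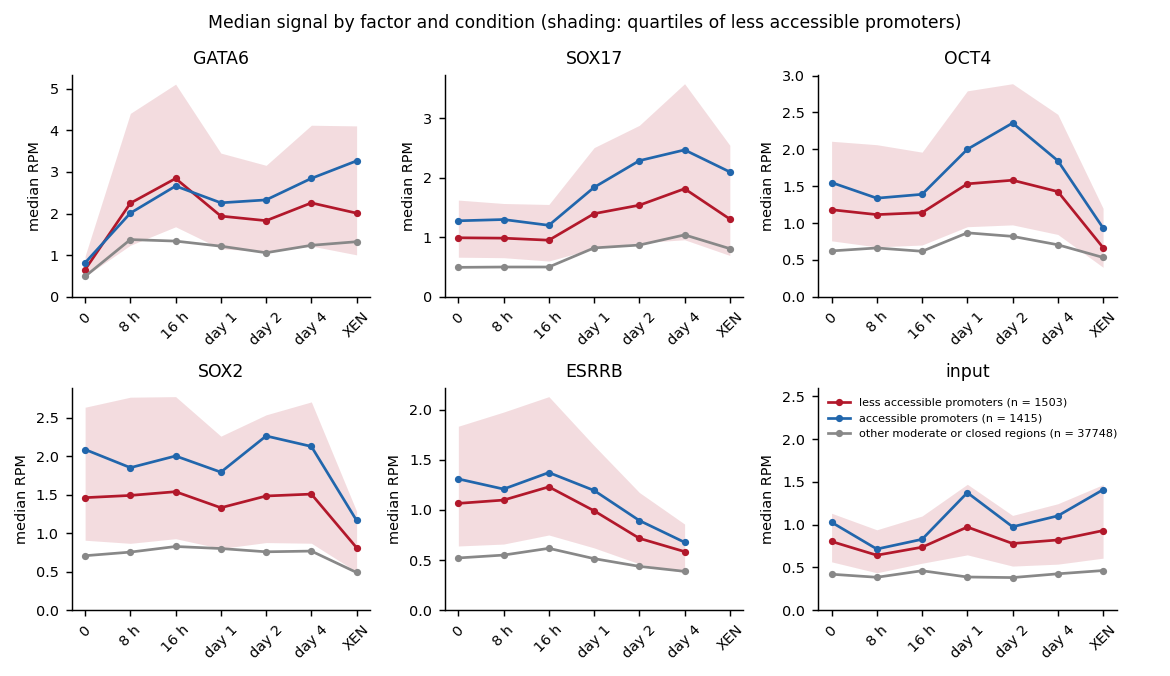
Median RPM (y axis) of each antibody and of input by condition (x axis, d0 to XEN) in less accessible promoters (red, shading from the lower to the upper quartile), accessible promoters (blue) and other moderate or closed regions (grey). GATA6 in the members peaked at 16 h (2.84 RPM), and ESRRB dropped to 0.584 RPM by day 4.

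The highest GATA6 signal of the members was at Runx1t1, a transcriptional corepressor gene, where the region is intronic, 305 bp upstream of the nearest start (chr4:13749721-13752264). GATA6 there was 1.47 RPM at d0 and 51.2 at 8 h, then 34.7, 15.1, 11.2, 13.7 and 14.0 from 16 h to XEN. The counting error of the 8 h value was at most 1.49 RPM, and that value ranked 11 of 42403 regions. Runx1t1 thus had an early peak of GATA6 from which it had come down by day 1.

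Lrpap1, which encodes a chaperone of LDL receptor family proteins, held GATA6 throughout (chr5:35103090-35105769). Its values were 1.80 RPM at d0, then 41.3, 45.6, 34.0, 35.1, 39.1 and 26.1 from 8 h to XEN. Rbpms, an RNA-binding protein gene whose region lies 972 bp upstream, had 2.45 RPM at d0 and 32.5, 43.4, 29.4, 24.3, 36.6 and 40.1 thereafter. Efna4, an ephrin ligand gene, had 3.43 RPM at d0 and 42.7, 36.5, 31.4, 36.2, 28.2 and 22.6 thereafter. At these 3 genes every condition with GATA6 present was above d0 and no later value came near it. The largest rises from d0 to 8 h by log2 change were at Runx1t1 (4.95), at Aasdh (4.78), a gene of aminoadipate metabolism, and at a region 2200 bp from the start of the non-coding gene Trp53cor1 (4.75), where GATA6 went from 1.31 to 40.1 RPM.

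The 3 members where GATA6 fell by 8 h were weak. They were Tpm4, Tor1b (0.980 and 0.253 RPM) and Prdx4 (0.817 and 0.180 RPM), of which Tor1b and Prdx4 lay under 1 RPM and are named because so few fell. Tpm4, a tropomyosin gene, had 1.14 RPM at d0 (counting error at most 0.432) and 0.470 at 8 h (0.143), and its input went from 0.748 to 0.255 RPM over the same interval. As a ratio to input the change at Tpm4 was 0.12 instead of -1.01 on the log2 scale. At Tor1b input was 0.407 RPM at d0 and 0.461 at 8 h.

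Between 8 h and day 4 GATA6 moved both ways. It rose at 327 members (21.8%), where 30.9% of all regions rose, and fell at 354 (23.6%), where 34.8% of all regions fell. As a ratio to input 12.5% of the members rose and 29.9% fell, against 25% and 35.8% of all regions. With a pseudocount 10 times larger 4.99% rose and 8.85% fell, against 11.1% and 14.5%. The members' shares were below those of all regions on each scale, but the counts of 327 and 354, and the splits and joint counts made from them, hold for RPM with the stated pseudocount. The median log2 change was -0.02 in the members and also over all regions, against 0.54 in accessible promoters, of which 34.1% rose and 19.4% fell. By the authors' clusters, which were made from these same GATA6 signals and are given as description, 418 members were Early&Constant sites (27.8%), 326 Late (21.7%) and 759 Transient (50.5%). In the other moderate or closed regions these shares were 28.8%, 35.4% and 35.7%.

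**Figure D3:**
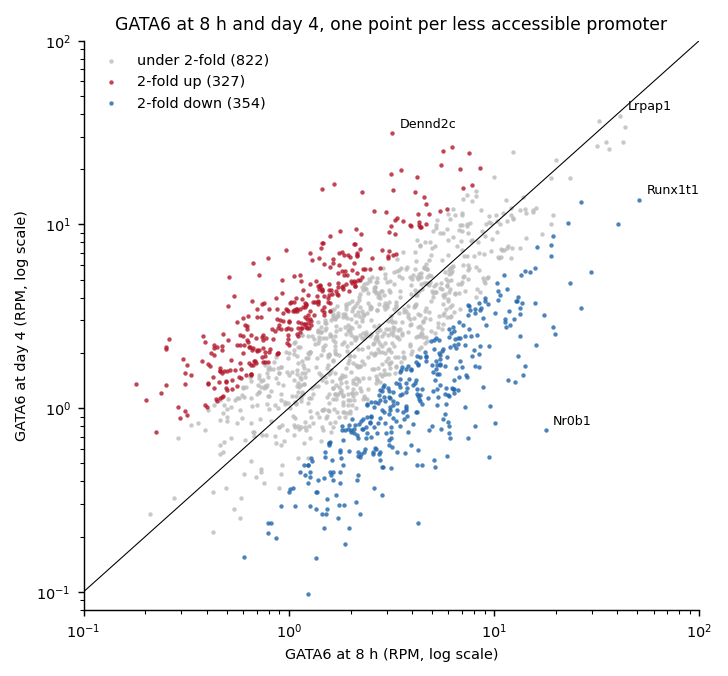
GATA6 RPM at 8 h (x axis, log scale) against day 4 (y axis, log scale), with 1 point per less accessible promoter and the line of equal signal. Red points (327) rose and blue points (354) fell at least 2-fold. Lrpap1 lies near the line, Dennd2c above it, Runx1t1 and Nr0b1 below it.

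The largest rises were in an intron of Wee1, a kinase gene of the cell cycle (chr7:110123793-110124469, log2 change 3.25), and at Dennd2c (3.21), which encodes a guanine nucleotide exchange factor for Rab GTPases. In the Wee1 intron GATA6 was 0.817, 1.46, 1.63, 4.18, 5.99, 15.5 and 6.48 RPM from d0 to XEN. At Dennd2c, 515 bp downstream of the start, it was 2.45, 3.20, 5.06, 8.22, 13.4, 31.3 and 21.8 RPM. The 8 h value was below the members' median in the Wee1 intron and above it at Dennd2c, and both were higher at each later day of Dox. A region 1155 bp downstream of the Myc start (chr15:61988072-61989082), in an intron, went the other way, with 0.980, 9.45, 4.98, 3.37, 1.74, 0.545 and 0.470 RPM from d0 to XEN, a log2 change of -3.71 from 8 h to day 4.

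Position, CpG content and motif grade, which do not use the size of any signal, went with the direction of this later change. Members within 1 kb of a start (998) rose in 24.3% and fell in 16.6% of cases, and the 505 members further away in 16.6% and 37.2%. Members with a CpG ratio over 0.6 (435) rose in 28.5% and fell in 13.1%, the other 1068 in 19% and 27.8%. Members with a high or mid GATA6 motif rose by 8 h in 82.8% of cases and from 8 h to day 4 in 14.2%, whereas the 193 members with no GATA6 motif rose in 41.5% and 39.4%. Their median signal at 8 h was 3.19 RPM with such a motif and 0.977 RPM without one, but the regions with the motif were wider (median 742 and 393 bp), and per kb of region the medians were 4.57 and 2.63 RPM. These properties overlap, since 42.8% of the members with high CpG lay within 250 bp of a start and 16.0% of the rest did, and their separate parts were not tested.

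From day 4 to XEN, GATA6 differed little at most members. It was at least 2-fold higher in XEN at 48 members (3.19%), against 14.4% of all regions, and lower at 121 (8.05%), against 11.7%. The median log2 difference was -0.09. Accessible promoters had a median of 3.27 RPM in XEN and the members 2.01, a ratio of 0.615 that became 1.02 when each region was first divided by its input. A region 10814 bp from the start of Cemip2 (chr19:21788966-21789439) was among those higher in XEN, with GATA6 of 1.09 RPM at day 4 and 6.18 in XEN, and input of 0.537 and 1.07. Some of the largest falls came with a fall of input. GATA6 went from 10.7 to 1.49 RPM at a region 104855 bp from the nearest start (chr4:125608863-125610345), and input there went from 1.89 to 0.726. At Bzw1, a regulator of translation, GATA6 went from 5.85 to 0.778 RPM and input from 0.792 to 0.234. At Acer2, a ceramidase gene, GATA6 went from 4.15 to 0.610 RPM and input from 0.509 to 0.169. The part of the input, or of the CD1 strain, in these differences was not tested.

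SOX17 signal appeared at the members by day 1. The median was 0.991, 0.984 and 0.95 RPM up to 16 h, then 1.4 (day 1), 1.54 (day 2), 1.81 (day 4) and 1.30 (XEN). From d0 to day 2 SOX17 rose at 333 members (22.2%), against 33.1% of all regions, and fell at 5, against 2.42%. By day 4 it had risen at 613 members (40.8%), against 44.5% of all regions, and fallen at 60 (3.99%), against 8.72%. By the paper, GATA6 activates Sox17 after its induction. What the SOX17 antibody signal before Dox rests on was not tested. All regions shifted by a median log2 change of 0.60 by day 2 and 0.79 by day 4, and relative to that shift 6.52% and 14.2% of the members rose, against 16.4% and 25.6% of all regions.

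P4ha1, which encodes a prolyl 4-hydroxylase needed to fold collagen, had the largest rise of SOX17 by day 2, 626 bp upstream of its start. SOX17 there was 2.90, 2.72 and 4.75 RPM up to 16 h, and 26.8, 42.6, 39.3 and 20.7 RPM from day 1 to XEN. The counting error at day 2 was at most 1.3 RPM, and the value ranked 8 among all regions. The highest SOX17 signal of the members at day 4 was in the Sall4 intron, 2765 bp from the start of this pluripotency gene, with 8.95 RPM at d0 and 8.26, 8.90, 33.8, 50.2, 53.0 and 23.9 thereafter. At both sites the values up to 16 h and those from day 1 on did not overlap.

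Other members gained SOX17 later. Gm9939, a predicted gene with a region 517 bp upstream, had the largest rise by day 4 (log2 change 4.42): 1.20 RPM at d0, 1.01, 1.5, 5.10 and 7.97 up to day 2, 29.6 at day 4 and 25.3 in XEN. Heca, the homologue of the fly headcase gene, went from 1.21 RPM at d0 to 8.55 at day 2 and 19.2 at day 4. At Emb, which encodes embigin, a partner of lactate transporters, SOX17 was already 20.9 RPM at day 1 and 29.7 at day 2. The members that reached high SOX17 thus differed in when they did so.

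The SOX17 motif, graded from the sequence of the called region, went with SOX17 signal among the members. With a high or mid motif (414 members) SOX17 rose in 56.0% of cases from d0 to day 4 (median log2 change 1.16), and with no motif (676) in 30.8% (0.61). Over all regions it rose in 44.5%. The median widths were 774 bp with such a motif and 493 bp with none, and the part of width in this difference was not tested. Against day 4, SOX17 in XEN was at least 2-fold higher at 9 members (0.60%; 6.25% of all regions) and lower at 221 (14.7%; 16.9% of all regions). At Zfp809, a repressor of retroviral DNA, SOX17 was 6.38 RPM at day 4 and 0.396 in XEN, while input was 0.594 and 0.229.

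OCT4 moved little in most members. Its median was 1.18, 1.11, 1.14, 1.53, 1.58 and 1.43 RPM from d0 to day 4, and 0.667 RPM in XEN, where the single OCT4 library had 1 read worth 0.133 RPM. OCT4 rose from d0 to day 2 at 114 members (7.58%; 14.6% of all regions) and fell at 17 (1.13%; 4.86%). By day 4 it was up at 158 (10.5%; 21% of all regions) and down at 137 (9.12%; 19.4%). Both shares were below those of the whole table in both directions. The median over all regions moved by 0.23 by day 2 and 0.16 by day 4, relative to which 3.66% and 6.92% of the members and 9.58% and 17% of all regions rose.

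Lrpap1 had the highest OCT4 of the members at d0, 8 h and days 1, 2 and 4, with 19.9, 22.9, 20.2, 31.1, 41.1, 32.8 and 3.07 RPM from d0 to XEN. Its day 2 value ranked 4 of all regions. OCT4 was gained at P4ha1, where it was 4.19, 4.21 and 4.69 RPM up to 16 h, 16.0, 25 and 26.3 RPM on days 1, 2 and 4, and 4.0 in XEN. Dennd2c (2.75 RPM at d0, 21.3 at day 4), Kntc1, a kinetochore protein gene (1.46 and 9.73), and Stx5a, a Golgi SNARE gene (2.38 and 9.19), also gained OCT4. At each of these 4 sites the XEN value was within 2-fold of d0. Among the largest falls of OCT4 was that at a region 28918 bp from Scn3b (chr9:40239634-40240964), with 12.6 RPM at d0, 9.05 at day 2, 1.45 at day 4 and 0.800 in XEN.

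SOX2 signal was likewise steady in the median, with 1.46 RPM at d0, 1.49, 1.54, 1.33, 1.48 and 1.51 up to day 4 and 0.810 in XEN. It rose from d0 to day 2 at 14 members (0.93%; 6.01% of all regions) and fell at 42 (2.79%; 6.7%). By day 4 it rose at 132 (8.78%; 24%) and fell at 212 (14.1%; 24.1%). The largest gains were in the Wee1 intron (log2 change 2.63) and at Dennd2c (2.59), with 3.30 RPM at d0, 2.67, 3.13, 4.07 and 7.56 up to day 2, 20.8 at day 4 and 4.51 in XEN at Dennd2c. At the region near Scn3b SOX2 went from 15.1 RPM at d0 to 1.12 at day 4.

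Members with a high or mid OCT:SOX motif (193) had more of both factors before Dox and lost them more often than the 593 without the motif. Median OCT4 at d0 was 2.53 RPM against 0.819, and median SOX2 3.14 against 1.01. Regions with the motif were wider (median 844 and 463 bp), and per kb of region OCT4 was 2.82 against 1.84 RPM and SOX2 3.31 against 2.23 RPM. OCT4 fell by day 4 in 24.9% of those with the motif and in 4.05% of those without, and SOX2 in 29.5% and 8.94%. In the authors' peak classes, 282 members carried PTF peaks at d0, 285 only after Dox (ectopic) and 936 had none, and 640 were SOX17 sites.

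ESRRB declined at the members in the median. Its median was 1.07, 1.10, 1.23, 0.991, 0.716 and 0.584 RPM from d0 to day 4. It rose from d0 to day 1 at 2 members, Gosr2 and a region near Gm7284 (0.13%; 0.271% of all regions), and fell at 17 (1.13%; 2.71%), whereas as a ratio to input 8.38% of the members and 4.1% of all regions fell. From d0 to day 4 it rose at 0 members (0.248% of all regions, a share near which 0 says little about the members) and fell at 505 (33.6%), against 25.2% of all regions. It fell at 42.5% of accessible promoters and 21.7% of the other moderate or closed regions, so frequent falls were not particular to the members. Median ESRRB at d0 was 1.31 RPM in accessible promoters and 0.520 in the other moderate or closed regions. All regions moved by -0.40, and relative to that 19% of the members and 16% of all regions fell. Falls were more frequent with a high or mid ESRRB motif: 70.8% of 312 members, with a median of 2.43 RPM at d0 and 0.781 at day 4, against 21.1% of the 1018 members with no motif. The median widths were 868 and 538 bp.

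Zyg11a, a gene for a substrate receptor of a ubiquitin ligase, had 20.2 RPM of ESRRB at d0, then 17.5, 19, 12.8, 9.99 and 1.89 from 8 h to day 4. Cdc45, needed for DNA replication, had 4.94, 6.04, 5.69, 3.50, 1.18 and 0.257 RPM of ESRRB from d0 to day 4, while its GATA6 stayed between 0.787 and 1.92 RPM from 8 h to day 4. The members' median GATA6 over the same conditions lay between 1.83 RPM (day 2) and 2.84 RPM (16 h). Whether the fall of ESRRB at Cdc45 had to do with GATA6 was not tested. One of the largest falls by day 1 was at a region near Gm26497 (chr8:122522631-122523629), where ESRRB was 13.8, 5.71, 16.9 and 5.45 RPM from d0 to day 1 and input 1.73, 0.694, 1.93 and 2.78. Input was low with ESRRB there at 8 h, but highest at day 1, when ESRRB was low.

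Nr0b1 (Dax1), a nuclear receptor gene of the pluripotency network on the X chromosome, stood apart from the other members. Its region lies in the coding exon, 555 bp from the start (chrX:86191555-86193083). ESRRB was 31.6, 106, 21.4, 1.78, 1.51 and 0.502 RPM from d0 to day 4, and the 8 h value was the highest of all 42403 regions at that time. The ESRRB values at 8 h are those with the single step of a 1-library column. GATA6 was 0.490 RPM at d0, 17.8 at 8 h, 12.5 at 16 h and 1.49 or 1.73 at days 1 and 2. OCT4 was 14.1, 5.29, 35.0 and 1.72 RPM from d0 to day 1, and the SOX17 antibody gave 9.20, 16.9, 7.60 and 1.28 RPM. Every antibody thus fell between 16 h and day 1 at Nr0b1 except SOX2, which had 4.48, 8.22, 1.83 and 2.07 RPM, while input stayed between 0.763 and 1.28 RPM throughout. What this signal in all 5 antibodies rests on was not tested.

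**Figure D4:**
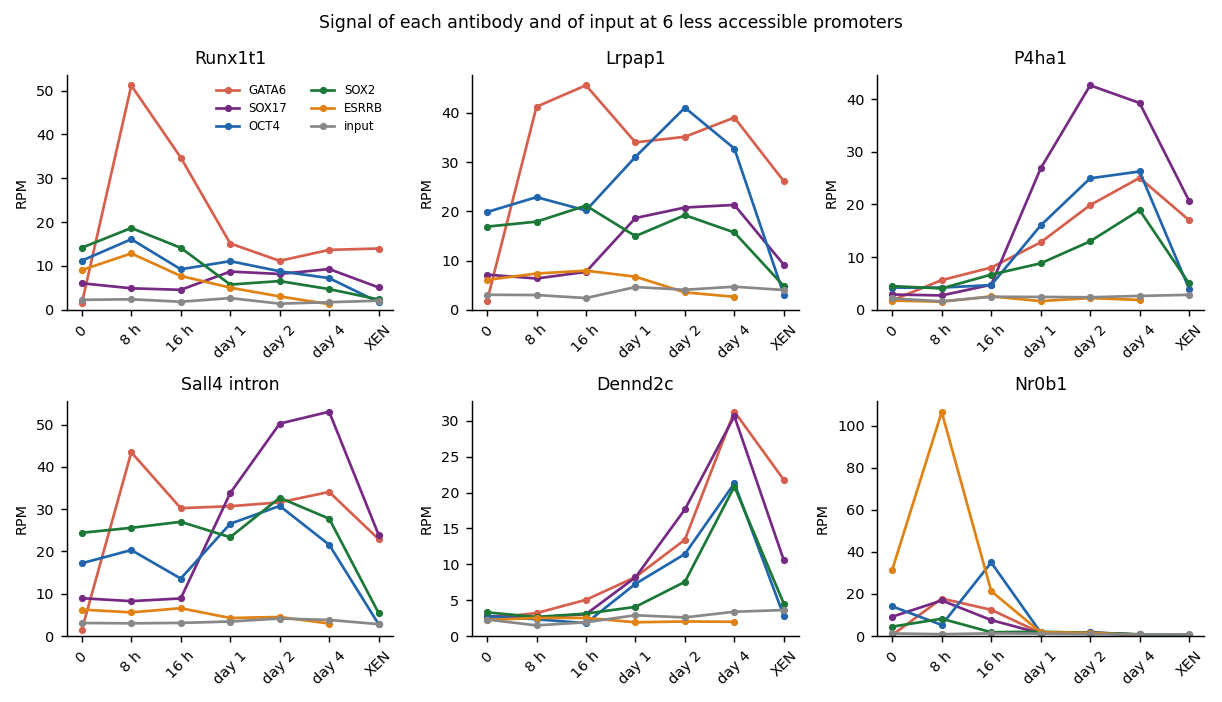
RPM (y axis) of the 5 antibodies and of input (grey) by condition (x axis, d0 to XEN) at 6 members. Runx1t1 peaked in GATA6 at 8 h (51.2 RPM), P4ha1 and the Sall4 intron gained SOX17 at day 1, Dennd2c was highest in GATA6, SOX17, OCT4 and SOX2 at day 4, and ESRRB at Nr0b1 peaked at 8 h (106 RPM).

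Gains of the other factors were counted at the members that gained GATA6, and losses at those that lost it. Of the 327 members where GATA6 rose from 8 h to day 4, SOX17 rose from d0 to day 4 at 268 (82.0% of these, 43.7% of the 613 SOX17 gains). In all regions 90.2% of the GATA6 gains had a SOX17 gain. At the 327 members OCT4 rose at 115 (35.2%, and 72.8% of its 158 gains) and SOX2 at 104 (31.8%, and 78.8% of its 132 gains). In all regions 58.7% of the GATA6 gains had an OCT4 gain and 68.9% a SOX2 gain. ESRRB fell at 42 of the 327. Of the 354 members where GATA6 fell, SOX2 fell at 178 (50.3%, and 84.0% of its 212 losses) and OCT4 at 122 (34.5%, and 89.1% of its 137 losses). ESRRB fell at 222 of the 354 (62.7%, and 44.0% of its 505 losses). All 60 SOX17 losses, here falls of the antibody signal from its d0 value, were among the 354 (16.9%). In all regions the GATA6 losses had SOX2, OCT4, ESRRB and SOX17 losses in 63.2%, 53.2%, 49.7% and 24.7% of cases. Taken of each factor's own gains, the shares in all regions were 62.7% (SOX17), 86.5% (OCT4) and 88.8% (SOX2). Taken of its own losses they were 91.3% (SOX2), 95.4% (OCT4), 68.8% (ESRRB) and 98.7% (SOX17). On that base only the share of SOX17 losses was higher in the members. Of the shares taken of GATA6 gains or losses, that with ESRRB losses was higher in the members, and the others, gains included, were lower. Counted over all members, whatever GATA6 did, these changes differed from all regions in the same direction. OCT4 gains were 10.5% of the members and 21% of all regions, SOX2 gains 8.78% and 24%, and ESRRB losses 33.6% and 25.2%. The shares above therefore do not tell whether the other factors followed GATA6 more or less closely at the members. Input rose at 2 of the 327 and fell at 5 of the 354. Over all members input rose from d0 to day 4 at 4 (0.27%; 1.08% of all regions) and fell at 8 (0.53%; 0.79%). Ctsl, the cathepsin L gene, was 1 of the 4 with input rising, from 0.642 to 1.70 RPM, beside GATA6 going from 0.490 to 3.01.

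**Figure D5:**
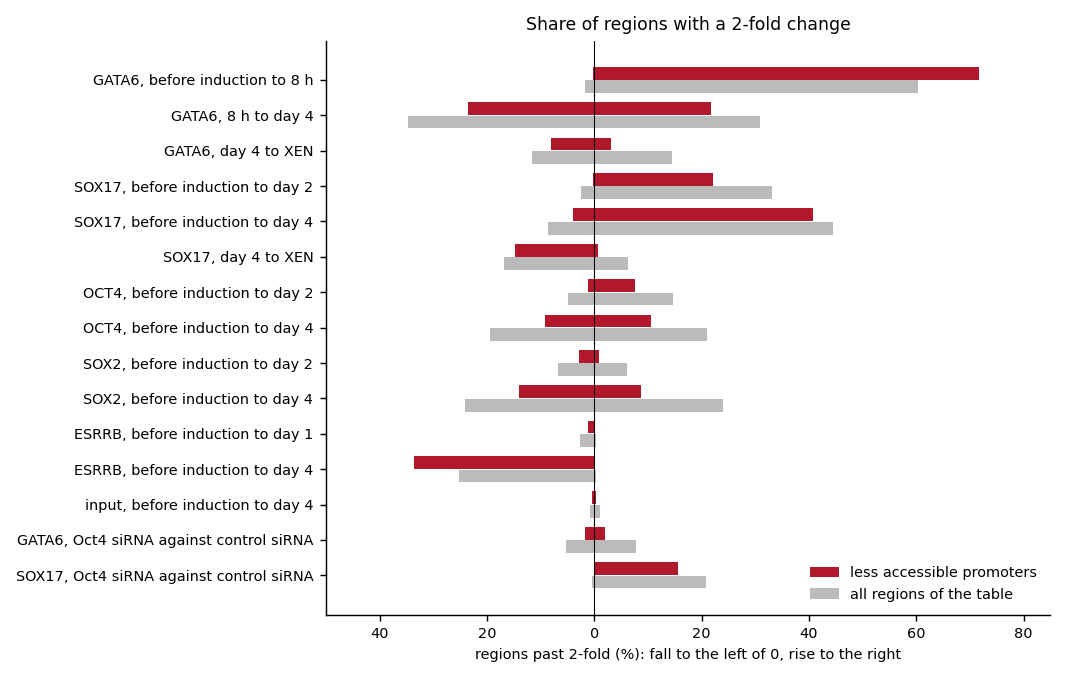
Share of regions in percent (x axis) that fell (left of 0) or rose (right of 0) at least 2-fold in each comparison (y axis), for less accessible promoters (red) and all 42403 regions (grey). The red bars exceed the grey ones for GATA6 rising by 8 h (71.7% against 60.4%) and ESRRB falling by day 4 (33.6% against 25.2%). The first excess in share does not hold relative to the median change of all regions. In accessible promoters, not shown, ESRRB fell more often (42.5%) than in the members.

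The level of GATA6 in the members relative to other moderate or closed regions depended on input. The ratio of medians was 1.64 at 8 h, 1.82 at day 4 and 1.52 in XEN, but it was 0.997, 0.947 and 0.765 after each region was divided by its own input. Median input at d0 was 0.802 RPM in the members, 1.03 in accessible promoters and 0.419 in the other moderate or closed regions. In RPM the members had a higher median than the other moderate or closed regions in all 45 columns, input included. They were also wider (median 614 against 517.5 bp). Per kb of region the GATA6 ratios were 1.31 at 8 h, 1.59 at day 4 and 1.31 in XEN. For SOX17 with Oct4 siRNA the ratio per kb was 0.997.

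Oct4 knock-down asked how GATA6 and SOX17 binding at day 2 depended on OCT4. GATA6 at the members had a median of 2.32 RPM with control siRNA and 2.31 with Oct4 siRNA. It was at least 2-fold higher upon knock-down at 30 members (2.0%; 7.77% of all regions) and lower at 26 (1.73%; 5.28%). SOX17 had a median of 0.981 RPM with control siRNA and 1.60 with Oct4 siRNA, and was higher at 234 members (15.6%; 20.8% of all regions) and lower at 1 (0.441% of all regions). All regions moved up by a median log2 difference of 0.52 in SOX17, and relative to that shift 1.93% of the members and 5.87% of all regions were higher. Each siRNA column pools 2 libraries, and the table has no input for them.

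The largest rises upon knock-down included 2 members whose GATA6 and SOX17 were highest at day 4 or in XEN in the Dox course. Eef1akmt1, which encodes a methyltransferase of a translation elongation factor and whose region is graded closed, had GATA6 of 0.813 RPM with control and 4.25 with Oct4 siRNA (counting errors at most 0.132 and 0.46), and SOX17 of 0.844 and 5.52. In the Dox course its GATA6 was 0.163, 0.434, 0.406, 0.753 and 0.488 RPM up to day 2, 2.12 at day 4 and 1.60 in XEN, and its SOX17 reached 0.710 at day 2 and 4.01 at day 4. A region 1622 bp upstream of Bicral (chr17:46813535-46814079) had GATA6 of 0.640 and 4.51 RPM and SOX17 of 0.875 and 4.54. Its values in the Dox course were 0.784 for GATA6 and 1.10 for SOX17 at day 2, and 3.26 and 6.22 at day 4. At both sites the Oct4 siRNA value at day 2 was above the day 2 value of the Dox course, and the control siRNA value within 2-fold of it, the Dox course being a separate experiment. SOX17 was higher in 29.4% of the 326 Late, 15.6% of the Early&Constant and 9.62% of the Transient members (20.8% of all regions), and GATA6 in 7.06%, 1.20% and 0.264% of them, none above the 7.77% of all regions. In the same order, the median log2 difference in SOX17 was 0.69, 0.61 and 0.45, against 0.52 over all regions. These SOX17 shares were not taken relative to that shift.

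Members with less GATA6 upon knock-down included Lefty1 and a region near Rd3. At Lefty1, an antagonist of Nodal, the region 831 bp upstream had 14.0 RPM of GATA6 with control and 5.75 with Oct4 siRNA. In the Dox course GATA6 at Lefty1 was 1.63 RPM at d0, 8.83, 16.6, 13.5 and 8.96 up to day 2, 3.08 at day 4 and 1.64 in XEN, and OCT4 was 9.50 RPM at d0, 18.9 at day 1 and 3.63 at day 4. The region near Rd3 (chr1:191946649-191947252) had GATA6 of 2.57 and 0.734 RPM and SOX17 of 2.26 and 0.962, and was the single member where SOX17 fell 2-fold.

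Gene lists of known roles were matched to the members within 1 kb of a start. Of 28 pluripotency regulators, 6 had a member: Dppa3, Lin28a, Nr0b1, Nr5a2, Tbx3 and Tcl1. GATA6 rose by 8 h at all 6 and fell from 8 h to day 4 at 5, Tbx3 being the exception (3.81 and 2.61 RPM), where 60.4% and 34.8% of all regions did. By day 4, SOX17, OCT4 and SOX2 signal had each fallen at 4 of them and ESRRB at 5, against 8.72%, 19.4%, 24.1% and 25.2% of all regions. At Tcl1, a coactivator of Akt, GATA6 was 0.653, 6.00, 7.41, 3.74, 3.60, 1.18 and 0.502 RPM from d0 to XEN. At Nr5a2, a nuclear receptor gene, SOX2 went from 3.72 RPM at d0 to 0.649 at day 4 and ESRRB from 5.50 to 0.703. Lin28a, which encodes an RNA-binding protein, kept the most GATA6 of the 6, with 22.9 RPM at 8 h and 10.2 at day 4.

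Of 20 PrE transcription factor genes, 10 had some GATA6 region within 1 kb of a start but 0 had a less accessible promoter. Only 1 had an accessible promoter. Because the promoter class was set by histone marks in ES cells, the 0 may follow from the class alone. Products of PrE and its derivatives had 4 members among 27 genes: Amot, Dab2, Fst and Lrp2. GATA6 rose by 8 h at 3 of them, where 60.4% of all regions did, and 4 genes are too few to set against that share. From 8 h to day 4 GATA6 rose at Fst, which encodes follistatin, from 0.493 to 1.39 RPM (30.9% of all regions rose). SOX17 rose by day 4 at the other 3, against 44.5% of all regions. Dab2, an endocytic adaptor of extraembryonic endoderm, had GATA6 of 1.31, 3.43, 5.29, 3.54, 3.84 and 5.68 RPM from d0 to day 4 and of 9.21 RPM in XEN, its highest value. Its log2 change by 8 h, 1.27, was below the median over all regions. Amot, which encodes angiomotin, had SOX17 of 0.648 RPM at d0, 3.47 at day 2 and 3.38 at day 4.

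Basement membrane genes had 2 members among 22, P4ha1 and Lamb1, a laminin chain gene. GATA6 rose in both intervals and SOX17 by day 2 at both, where 60.4%, 30.9% and 33.1% of all regions rose. Within 2.5 kb of a start Agrn and Col18a1 also had members. From 8 h to day 4 GATA6 then rose at 2 and fell at 2 of the 4. Lamb1, with the region on its start, had GATA6 of 0.327 RPM at d0, 1.21 at 8 h, 3.64 at day 4 and 2.71 in XEN, and SOX17 of 1.72 at d0 and 4.92 at day 4. Signalling genes had 7 members at 6 of the 39 genes found in the annotation, Id1, Id3, Lef1, Lefty1, Smad6 and Smad7. GATA6 rose at all 7 by 8 h, where 60.4% of all regions rose. At Id3 (1.06), Smad6 (1.21) and the Lefty1 region on the start (1.07) it rose by less than the median over all regions. From 8 h to day 4 GATA6 rose at Smad7, an inhibitor of TGF-beta signalling (2.10 and 4.64 RPM), and fell at the upstream Lefty1 region. Of all regions 30.9% rose and 34.8% fell in that interval.

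The remaining lists had few members. Survival genes had 2 of 18 (Akt1 and Bbc3), chromatin and transcription machinery 2 of 28 (Med12 and Tet1), ribosomal proteins 1 of 27 (Rps2) and trophectoderm genes 1 of the 16 found in the annotation (Tead4). Developmental regulators with bivalent promoters in ES cells (60 genes) and germline genes (30) had 0 members, although 11 and 3 of them had some GATA6 region. Accessible promoters were found at 0 and 1 of these genes. The promoter class was set by histone marks in ES cells, so the absence of members may follow from the class alone. Of 20 fibroblast genes, included because feeder cells were present, 1 had a member, Thy1, with GATA6 of 0.327, 0.427, 1.74, 0.471, 0.416, 0.210 and 0.168 RPM from d0 to XEN. Thy1 passed 2-fold in neither GATA6 interval of the induced course, and SOX2 fell there by day 4, from 0.559 to 0.165 RPM.

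The 39 closed members had less GATA6 at 8 h than the 1464 moderate ones and rose more often afterwards. Median GATA6 in the closed members was 0.490, 1.06, 1.45, 1.20, 1.04, 1.75 and 1.56 RPM from d0 to XEN. It rose by 8 h in 51.3% of them and in 72.3% of the moderate members, against 60.4% of all regions, and from 8 h to day 4 in 43.6% and 21.2%, against 30.9%. Moderate members had a 1.30 times higher median than closed members at day 4, which became 0.729 times after division by input. A closed member with high signal lay in an intron of Mphosph8, a subunit of a silencing complex, 1179 bp from its start (chr14:56668938-56669916). Its GATA6 was 0.653, 2.29, 4.06, 5.94, 8.66, 15.1 and 6.82 RPM from d0 to XEN, and its SOX17 0.854, 0.433, 1.25, 4.15, 7.06, 12.8 and 2.63. Both factors were higher at each later day of Dox in this region, and SOX2 there went from 1.31 RPM at d0 to 8.50 at day 4.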

How the data were processed

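ChIP-seq and input reads were processed by the authors with cutadapt, aligned to mm10 with Bowtie2, filtered on mapping quality, deduplicated by molecular identifier with SAMtools and counted over GATA6 peaks called by MACS2 on merged replicates. The deposited RPM values are read counts scaled to library size by the authors, pooled over the replicates of 96 libraries of 47 conditions into 45 columns. The siRNA inputs have no column. Motif scores are the authors' FIMO score per best motif, with counts of motifs per region, also deposited by the authors. The promoter and accessibility labels are deposited classes whose thresholds are not given in the sources used here. Of 105 columns, 14 accessibility and histone signal columns per sample were not used, nor was the column with the authors' own DESeq2 outcome of the Oct4 knock-down.

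Members were all rows with the promoter class and a moderate or closed grade. Changes were differences of log2(RPM + pseudocount), the pseudocount being percentile 5 of all values of that antibody. A change of 1 was the call. They were computed over all 42403 regions, and the step was checked on simulated data. The lowest value equalled 1 read per pooled library in 40 of 45 columns, but only 4 columns (GATA6 at d0, OCT4 in XEN, ESRRB at 8 h and SOX17 at 16 h) had a single step that gives whole reads, 36 mixed the steps of pooled libraries and 5 showed neither, so no count test was possible. Replicates being pooled, p-values and replicate SDs cannot be given. Counting errors are upper bounds and cover counting only.

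Regions were annotated with GENCODE M21 and RefSeq sequence of GRCm38.p6 (pysam 0.24.0, pandas 2.3.3). Region coordinates are printed as deposited, and motif windows are 1-based. Named were the 6 members with the highest GATA6, the 4 highest in SOX17 at day 4 and in OCT4, SOX2 and ESRRB at d0, the 3 largest rises and falls of each comparison among members of at least 1 RPM, and members of the gene lists. The members of this set and the gene lists were chosen with earlier results of these data known. Further members outside the rule are given as list members or as examples chosen after their values were seen.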

Additional observations from a re-analysis of the deposited data

How the results depend on the processing

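No paired analysis was possible because the replicates of each condition were pooled into 1 column, and leaving out a replicate was not possible for the same reason. Of 180 alternative values of 49 main results, 123 kept their direction and stayed close to the value reported. Of 342 alternatives of 90 named changes, 1 turned its sign (Tpm4, GATA6 from d0 to 8 h, 0.12 as a ratio to input) and 28 went under 2-fold, 25 of them with the larger pseudocount. Shares of members below are percentages.

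A pseudocount 10 times larger lowered nearly all shares. For GATA6 they were 32.3 (d0 to 8 h, up), 4.99 and 8.85 (8 h to day 4, up and down) and 1.13 (XEN, down), and for SOX17 6.19 (day 2, up), 15.8 (day 4, up) and 3.26 (XEN, down). For OCT4 they were 1.33 (day 2, up), 2.13 and 2.59 (day 4, up and down), for SOX2 0.0665 (day 2, down), 1.66 and 4.86 (day 4, up and down), for ESRRB 0.133 (day 1) and 9.91 (day 4, down), for input 0 (down), and with Oct4 siRNA 0.266 (GATA6, up) and 1.20 (SOX17, up). A pseudocount 10 times smaller gave 2.40 (ESRRB, day 1, down), 1.93 (input, down) and 24.0 (SOX17 with Oct4 siRNA, up). Fold calls of weak members therefore rest on the pseudocount.

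Relative to the median of all regions, the shares were 20.8 (GATA6, 8 h, up), 6.52, 14.2 and 9.65 (SOX17, day 2 up, day 4 up, XEN down), 3.66 and 6.92 (OCT4, day 2 and day 4, up), 0.732 and 19 (ESRRB, day 1 and day 4, down) and 1.93 (SOX17 with Oct4 siRNA, up). As ratios to input they were 12.5 (GATA6, 8 h to day 4, up) and 8.38 (ESRRB, day 1, down). Divided by input in each region, an alternative chosen after seeing the data, median GATA6 of the members was 1.02 times that of accessible promoters in XEN and 0.997, 0.947 and 0.765 times that of other moderate or closed regions at 8 h, day 4 and XEN, and that of moderate was 0.729 and 0.844 times that of closed members at day 4 and XEN (1.30 in RPM).

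With only the members within 1 kb of a start, the shares were 1.60 and 8.32 (SOX2, day 2 and day 4, down), 0.601 (ESRRB, day 1, down) and 0.200 (input, down), and classes held 24.0 (Late), 46.5 (Transient), 15.8 (PTF peaks at d0) and 18.1 (ESRRB motif, from 20.8). With only regions of at least 1 RPM, 54.8 fell in ESRRB by day 4. Counting high motifs only, or any motif, gave 24.8 and 87.2 (GATA6, from 53.9), 11.4 and 55.0 (SOX17, from 27.5), 3.53 and 60.5 (OCT:SOX, from 12.8) and 7.72 and 32.3 (ESRRB, from 20.8). Within 2.5 kb of a start there were 4 basement membrane and 3 ribosomal members. Of these 4, GATA6 rose at 2 and fell at 2 from 8 h to day 4. Depth limits members near 0.163 RPM, the largest value of 1 read in any column (GATA6 at d0). The cause of these moves was not tested.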
